A study of Mus musculus with 3 samples.

Results

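The heat shock proteins, chaperonins and their co-chaperones were followed as 1 gene family group in mouse hippocampus. Members were chosen by gene symbol: every gene named as a heat shock protein (Hsp), a J protein of class A, B or C (Dnaja, Dnajb, Dnajc), a numbered subunit of the CCT chaperonin (Cct) or a numbered BAG protein (Bag), together with the co-chaperones St13, Stip1, Ahsa1 and Cdc37 and the heat shock factors Hsf1 and Hsf2. Hspg2, Hspbap1, Dnajc5 and processed pseudogenes were left out. This gave 93 of the 39377 genes in the expression table. Of these, 81 had a mean of at least 1 FPKM (a count of fragments scaled for gene length and library depth), 7 lay under 1 but above 0, and 5 (Cct8l1, Dnajb7, Dnajb8, Dnajc5b and Dnajc5g) were listed at 0 in all libraries.

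The RNA was total RNA from whole hippocampus of wild-type (WT) C57BL/6 mice at postnatal day 14, with no treatment named in the labels, in 1 group of 3 libraries, here numbered 1, 2 and 3. Separate animals are not stated in the labels. The p-values hence describe just the spread among these 3 samples, part or all of which may be technical. With a single group no condition could be compared. Members were instead compared with a reference gene inside each library, and each ± gives the SD of n = 3 libraries.

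Chaperones bind unfolded stretches of other proteins and help them fold, assemble, cross membranes or be degraded. Hsp70 proteins work in cycles of ATP use that J proteins start and that nucleotide exchange factors such as BAG and Hsp110 proteins end. Hsp90 receives client proteins from Hsp70, and the CCT ring folds actin and tubulin. Some members are made at all times, whereas others are induced when Hsf1 binds heat shock elements in their promoters after heat or other protein damage. In neurons, chaperones also serve synaptic vesicle cycling, in which Hsc70 strips clathrin from vesicles.

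Depth was low and differed between libraries. An estimate from the spacing of low FPKM values gave about 3680000, 4170000 and 5940000 fragments in libraries 1, 2 and 3, so that 3 fragments of a transcript of 2 kb equalled 0.466, 0.411 and 0.289 FPKM. The neuronal markers were present, with Snap25 at 841.29, 791.62 and 708.94 FPKM. Markers of choroid plexus and ependyma, which border the hippocampus, summed to 417, 1110 and 1336 FPKM over 8 genes, nearly all of it Ttr (391.81, 1070.95 and 1295.71 FPKM). All 8 had a mean of at least 1 FPKM. The sum was lowest in library 1, as were 6 of the 8 markers, while Foxj1 and Tmem212 were lowest in library 2. Their part in the members' values was not tested. In bulk tissue, fewer cells of a type and less RNA per cell cannot be told apart.

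A few members carried much of the summed level. Hspa8, at 763 ± 68.6 FPKM, ranked 115 among the 19046 genes above 0, and 15 members had means of at least 100 FPKM, as did 992 genes of the table. The 5 highest members, Hspa8, Hsp90ab1, Hsp90aa1, Hspe1 and Dnaja1, made up 42.0% ± 1.45 of the summed FPKM of all 93 members. The median member had 20.4 FPKM. At the other end, Hspa1a, Hspa1b, Hspa12b and Dnajc28 had means between 1 and 2 FPKM.

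**Figure D1:**
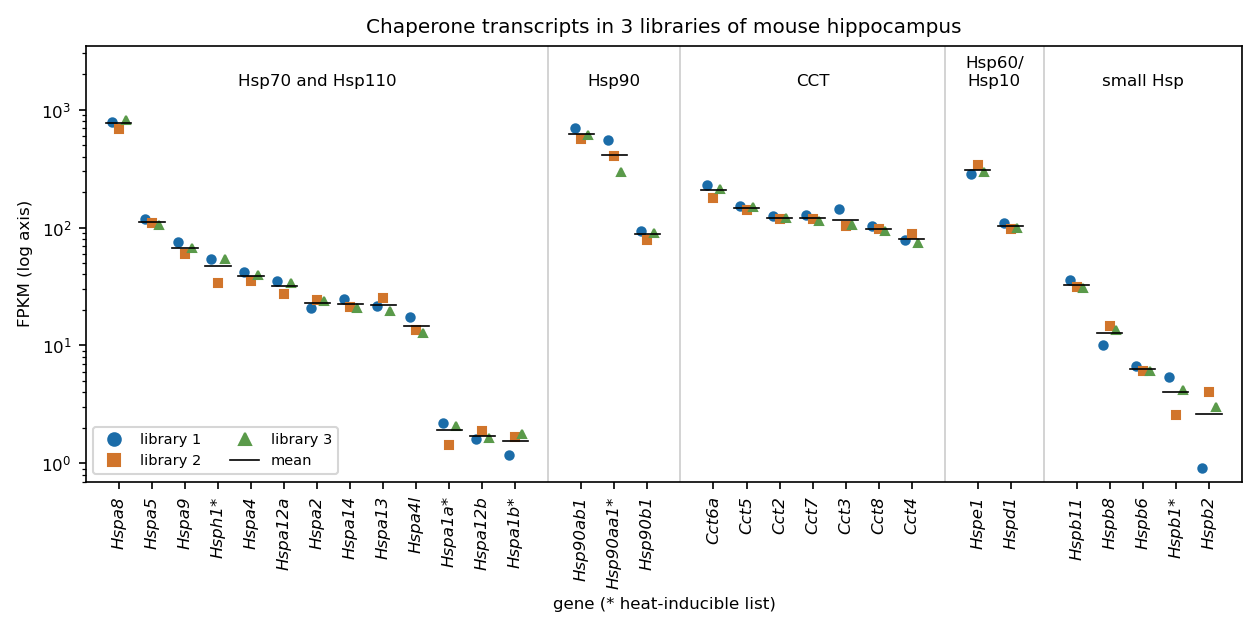
FPKM (log axis) of the Hsp70 and Hsp110, Hsp90, chaperonin and small heat shock proteins, with 1 point per library and a short line at the mean of 3 libraries. Hspa8, at a mean of 763 FPKM, stands far above Hspa1a at 1.90 and Hspa1b at 1.53 FPKM.

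Cytosolic Hsp70 was almost entirely the constitutive form at the RNA level. Hspa8 (chromosome 9, 40801276 to 40805202, protein coding, RefSeq on GRCm38.p6) encodes Hsc70, the constitutive cytosolic Hsp70, and was at 792.06, 684.68 and 812.29 FPKM. Hspa1a and Hspa1b are neighbouring genes that encode nearly the same heat-inducible Hsp70. Hspa1a was at 2.18, 1.43 and 2.09 FPKM and Hspa1b at 1.17, 1.66 and 1.77 FPKM. The highest value of either inducible gene in any library was thus far below the lowest value of Hspa8. Most genes lie far below Hspa8: 97.6% of all genes tested were called lower by more than 2-fold in the test described below. A gap from Hspa8 is hence not particular to these 2 genes. The ratio of Hspa8 to Hspa1a was 410 ± 60.7, and that of Hspa8 to Hspa1b was 516 ± 141.

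Differences between genes were tested on log2(FPKM + 1), which makes differences of low genes look smaller, with limma (its treat test, two-sided) against a null of at most 2-fold and Benjamini-Hochberg adjustment over all 13336 other genes at a mean of at least 1 FPKM. All differences from 1 reference share that gene's own values. Against Hspa8, Hspa1a was lower by a log2 difference of -8.05 (SE 0.125, adjusted p = 3.41e-09) and Hspa1b by -8.24 (SE 0.145, adjusted p = 3.41e-09), each in 3 of 3 libraries. Of 80 members tested, 78 were called lower than Hspa8, where 97.6% of all genes were called lower, a share so high that the members' count says little. The median log2 difference from Hspa8 was -4.97 over these members and -6.08 over all genes tested. None was called higher, where 0.255% of all genes were. The 2 members not called were Hsp90ab1 and Hsp90aa1.

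The low values of the inducible genes rest on few fragments. Hspa1a had an estimated 21.8, 16.2 and 33.7 fragments and Hspa1b 11.0, 17.7 and 26.8, so that counting error alone amounted to between 17.2% and 30.2% of a value. The pair also share sequence. Of all stretches of 150 bases in the longest coding transcript, 38.1% of those of Hspa1a recur in Hspa1b, so how reads were split between the copies is uncertain. Both lie on the minus strand of chromosome 17, 9951 bases apart, next to Hspa1l, a testis-enriched Hsp70 gene at 0, 1.18 and 0.58 FPKM, of whose stretches 70.2% recur in Gm10501. Hspa8 shares 56.0% of its stretches with other genes, mostly Gm26825 (49.3%), which is not analysed here.

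The other Hsp70 proteins lay between these extremes. Hspa5 encodes BiP, the Hsp70 of the endoplasmic reticulum (ER), and was at 117.18, 109.80 and 105.16 FPKM. Hspa9 encodes mortalin, the mitochondrial Hsp70, and was at 75.41, 59.67 and 66.75 FPKM. Hspa8 exceeded Hspa5 by a ratio of 6.91 ± 0.755 and Hspa9 by 11.4 ± 0.837, so each compartment's main Hsp70 kept its place in every library. The remaining genes were lower: Hspa12a had a mean of 32.0, Hspa2 of 22.9, Hspa14 of 22.3 and Hspa13 of 22.2 FPKM. Those 3 last means lay within 1 SD of each other and their order is not resolved. Hspa12b, known from endothelium, had 1.62, 1.88 and 1.65 FPKM.

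The Hsp110 proteins, which exchange nucleotides on Hsp70, include a heat-inducible and a constitutive gene at overlapping levels. Hsph1, the inducible Hsp110, was at 53.61, 33.92 and 53.77 FPKM. Hspa4 was at 41.72, 35.52 and 39.87 FPKM and Hspa4l at 17.54, 13.49 and 12.70 FPKM. Hsph1 exceeded Hspa4 in libraries 1 and 3 and not in library 2, with a ratio of 1.20 ± 0.211, so the 2 genes did not differ in a fixed direction. Hsph1 was the only Hsp70 or Hsp110 gene of the heat-inducible list with a mean above 2 FPKM.

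Hsp90 was abundant in both its constitutive and its inducible cytosolic form. Hsp90ab1 (chromosome 17, 45567778 to 45573261), the constitutive Hsp90 beta, was at 695.13, 560.93 and 613.86 FPKM. Hsp90aa1 (chromosome 12, 110691036 to 110696395), the inducible Hsp90 alpha, was at 549.57, 401.44 and 294.44 FPKM. Hsp90b1, which encodes the ER form Grp94, was at 94.15, 78.54 and 89.54 FPKM. Hsp90ab1 was above Hsp90aa1 in each library, by ratios of 1.26, 1.40 and 2.08 (1.58 ± 0.440), and the difference was not called beyond 2-fold (log2 difference -0.63, SE 0.173, limma adjusted p = 0.982). Against a null of no difference it was called, with a limma adjusted p of 0.00807. Hsp90b1 was lower than Hsp90ab1 by -2.82 (SE 0.13, limma adjusted p = 9.03e-07).

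Hsp90aa1 therefore did not follow the inducible Hsp70 genes in level. It held 7.45% ± 1.91 of the members' summed FPKM, against 1.37% ± 0.223 for the 6 other genes of the heat-inducible list together. Its SD was the largest of any abundant member, with a coefficient of variation of 30.9% and a ratio of 1.87 between its highest library, 1, and its lowest, 3. Counting error was between 1.28% and 1.40% of its value, far under that spread. Library 1 was the highest and library 3 the lowest for Hsp90aa1 as deposited and after both rescalings of the table tried here. Of its stretches of 150 bases, 36.2% recur elsewhere, most in Gm12346, which was listed at 0 in all libraries.

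Taken as a list, 7 cytosolic chaperones known for induction by heat (Hspa1a, Hspa1b, Hsph1, Hsp90aa1, Dnajb1, Hspb1 and Bag3) were compared with 18 known to be made constitutively. The inducible list had a median of 4.06 FPKM and the constitutive list one of 99.7 FPKM. These medians depend on which genes were listed. Of the 18 constitutive genes, 7 are CCT subunits. Of the 93 members, 53 were in no induction or location list and do not enter the medians. Their median was 11.8 FPKM, with Dnaja1, Ahsa1 and Stip1 among the high ones. Another 7 of them lay under 1 but above 0 FPKM and 5 at 0. The lowest gene of the constitutive list, Hspa4, had a mean of 39.0 FPKM. Since the lists were drawn up with earlier results known, the 2 medians are a description and no test. Against Hspa8, 6 of 7 inducible genes were called lower, with a median log2 difference of -7.28, and so were 16 of 17 constitutive genes, with a median of -2.95. Of all genes 97.6% were called lower, with a median of -6.08, so neither count stands apart from that background. Within the inducible list, levels spanned from 1.53 FPKM for Hspa1b to 415 FPKM for Hsp90aa1. Dnajb1, the J protein that works with induced Hsp70, was at 19.05, 18.15 and 18.46 FPKM. Bag3, which links Hsp70 to selective autophagy, was at 2.80, 1.75 and 2.91 FPKM, and Hspb1, the small protein Hsp25, at 5.44, 2.57 and 4.16 FPKM.

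Library 2 was the lowest for 5 of the 7 inducible genes, as deposited and after both rescalings, and the highest for none. Of all 13337 genes at 1 FPKM or more, 4428 were lowest in library 2 as deposited and 8138 and 4672 after the rescalings. Hspa1b was lowest in library 1 and Hsp90aa1 in library 3. For Hspa1a, Bag3 and Hspb1 these are differences between few fragments; Hspb1 had an estimated 13.6, 7.29 and 16.8. Dnajb1 had a coefficient of variation of 2.46% as deposited, under its counting error of 5.76% to 7.21%. Its spread was larger after the rescalings, at 25.6 ± 3.4 and 32.4 ± 1.42. Immediate early genes, which respond within minutes to activity or handling, summed to 179, 180 and 209 FPKM over 19 genes in libraries 1, 2 and 3, led by Jund (66.62, 57.80 and 81.16 FPKM). Jund made up a large part of each sum, and single genes differed in order. Fos was lowest in library 2, at 1.95 FPKM, while Arc was highest there, at 10.79 FPKM. Of the 15 immediate early genes at a mean of at least 1 FPKM, 3, 3 and 9 were highest in libraries 1, 2 and 3. The lowest sums of the 19 genes were in libraries 1 and 2, and their part in the inducible values was not tested.

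The ER chaperones formed a second set, induced as a rule by the unfolded protein response. Of 8 ER members, all passed 1 FPKM, with a median of 24.2 FPKM. Hsp90b1 was at 0.790 ± 0.0691 of the level of Hspa5 in the same library. Their J protein partners were lower: Dnajb11, a BiP co-factor, was at 53.61, 45.14 and 39.57 FPKM, Dnajc10 at a mean of 25.0, Dnajb9 at 22.4, Dnajc3 at 12.7 and Dnajc1 at 4.39 FPKM. The values of Dnajb9 differed little between libraries (± 0.825). Its coefficient of variation of 3.69% was under its counting error of 5.95% to 7.28%. Factors of the unfolded protein response were measured beside them and 9 of 11 passed 1 FPKM, with Atf4 at 77.21, 82.17 and 75.60, Asns at 41.36, 36.80 and 43.20 and Xbp1 at 32.35, 31.17 and 29.21 FPKM. The sums of the 11 factors, at 221, 227 and 215 FPKM, differed little between libraries, but single factors differed more. Ddit3 was at 16.57, 21.56 and 14.67 and Ppp1r15a at 9.20, 15.97 and 11.71 FPKM, both highest in library 2. Of the 9 that passed, 4, 4 and 1 were highest in libraries 1, 2 and 3.

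The promoters of these genes are shown because heat and ER stress are known to act through short elements there. The ER stress element was searched on both strands as CCAAT followed, after 9 bases of any kind, by CCACG, in windows from 250 bases before to 50 bases after each start in RefSeq (GRCm38.p6). It was found in 3 of 76 members with a window (3.95%), namely Hspa5, Hsp90b1 and Dnajc3, against 37 of 27025 genes (0.137%) and 0.153% of 10432 genes at 1 FPKM or more. All 3 are ER members. The bases before the start read as follows, 5′ to 3′ on the gene's own strand, with the fixed letters of each match in capitals; Hsp90b1 has 2 matches, the latter on the opposite strand.
Hspa5, chr2:34771970-34772089, plus strand: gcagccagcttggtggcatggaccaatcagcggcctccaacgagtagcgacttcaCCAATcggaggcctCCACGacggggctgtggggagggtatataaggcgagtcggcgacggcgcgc
Hsp90b1, chr10:86705445-86705664, minus strand: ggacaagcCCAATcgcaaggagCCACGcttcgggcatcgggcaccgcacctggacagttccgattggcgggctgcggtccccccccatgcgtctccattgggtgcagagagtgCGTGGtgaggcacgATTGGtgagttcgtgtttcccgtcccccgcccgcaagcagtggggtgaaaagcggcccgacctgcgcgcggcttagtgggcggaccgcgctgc
Dnajc3, chr14:118937812-118937931, plus strand: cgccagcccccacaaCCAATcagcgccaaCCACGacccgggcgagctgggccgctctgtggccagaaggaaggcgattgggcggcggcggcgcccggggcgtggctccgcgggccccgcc

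The heat shock element was searched on both strands as GAA, TTC and GAA with 2 bases of any kind between neighbours (on the other strand TTC, GAA and TTC), and matches may overlap. It was found in 4 of the 76 members (5.26%), namely Hspd1, Hspe1, Dnajb6 and Hsph1, against 179 of 27025 genes (0.662%) and 0.537% of those at 1 FPKM or more. Hspd1 and Hspe1 lie head to head and share a single stretch with 2 overlapping matches. The match of Hsph1 lies after its start. Hspa8, Hsp90ab1, Hsp90aa1, Hspa9 and Hsf1 were among the members without a window, so neither element was searched there. Of the 7 inducible genes 6, all but Hsp90aa1, had a window, and only Hsph1 matched. Hspa1a is printed without a match beside the others. That no match was found says only that these letters are absent from this window.
Hspe1, chr1:55088028-55088147, plus strand: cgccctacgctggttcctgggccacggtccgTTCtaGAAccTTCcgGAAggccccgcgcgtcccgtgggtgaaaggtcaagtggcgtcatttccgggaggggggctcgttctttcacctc
Dnajb6, chr5:29735778-29735897, plus strand: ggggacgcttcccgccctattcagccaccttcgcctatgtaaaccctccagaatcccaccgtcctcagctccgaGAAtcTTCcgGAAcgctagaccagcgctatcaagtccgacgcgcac
Hspa1a, chr17:34972157-34972276, minus strand: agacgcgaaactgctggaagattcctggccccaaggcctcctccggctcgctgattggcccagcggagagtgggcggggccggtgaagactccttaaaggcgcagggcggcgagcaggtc

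Both motifs were chosen after the data had been seen, and both are known from promoters of such genes. The shares set beside those of all genes are therefore no test of enrichment, and a match is a description of letters. Levels of the matching genes were unlike each other: the ER genes with a match ranged from 12.7 FPKM for Dnajc3 to 111 FPKM for Hspa5, and the heat shock element genes from 47.1 FPKM for Hsph1 to 305 FPKM for Hspe1.

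The mitochondrial chaperonin was measured through its ring and its lid. Hspd1 (Hsp60, the ring) was at 109.46, 98.04 and 99.42 FPKM, and Hspe1 (Hsp10, the lid) at 282.28, 337.89 and 295.33 FPKM. Hspe1 exceeded Hspd1 in FPKM in each library, with ratios of 2.58, 3.45 and 2.97 (3.00 ± 0.434). In estimated fragments Hspe1 was the lower, at 544, 738 and 919 against 875, 888 and 1283. The excess thus rests on the scaling for length, with a transcript of 774 bases for Hspe1 and 2423 for Hspd1. Of their stretches, 14.1% for Hspe1 and 18.6% for Hspd1 recur elsewhere. Their gene records also overlap, so the ratio is uncertain. The genes lie head to head across the shared stretch printed above. Hspe1 was lower than Hspa8 by -1.32 (SE 0.147, limma adjusted p = 0.0340), a call lost without library 1 (adjusted p = 0.191) or library 3 (0.125). Among the other mitochondrial members, Dnajc19, a part of the import motor, was at 80.60, 93.19 and 98.76 FPKM, and Dnaja3, Dnajc15 and Dnajc11 had means of 25.7, 19.9 and 19.4 FPKM. Trap1, the mitochondrial Hsp90, was at 28.69, 33.54 and 32.04 FPKM.

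The RNAs of the CCT ring, which has 8 different subunits, had means from 80.3 FPKM for Cct4 to 207 FPKM for Cct6a. Tcp1 is its first subunit and was used as reference, at 123.90, 106.26 and 115.36 FPKM. The 7 others with a mean of at least 1 FPKM were Cct2 (124.50, 118.25 and 119.41), Cct3 (143.05, 102.86 and 104.25), Cct4 (78.12, 88.61 and 74.24), Cct5 (151.92, 139.63 and 149.60), Cct6a (231.10, 179.09 and 210.28), Cct7 (127.26, 118.12 and 113.55) and Cct8 (102.95, 97.95 and 93.04). Cct6a was the highest and Cct4 the lowest of these subunits in each of the 3 libraries. The gene record of Cct6a overlaps the coding gene Psph, and its shared stretches and fragments were not estimated, so its value is uncertain. Cct6b, the testis form, had 0.18, 0 and 0.11 FPKM and Cct8l1 was listed at 0.

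None of the 7 subunits was called beyond 2-fold of Tcp1 by limma, while of all genes 83.9% were called lower and 2.81% higher. The log2 differences ran from -0.52 for Cct4 (SE 0.129) to 0.83 for Cct6a (SE 0.108), with Cct3 at 0.00 (SE 0.122). Against a null of no difference Cct6a (limma adjusted p = 0.000324) and Cct5 (0.0179) were higher than Tcp1 and Cct4 (0.00808) was lower. The differences of those 3 subunits were thus larger than the spread between libraries, and none was shown to exceed 2-fold.

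**Figure D2:**
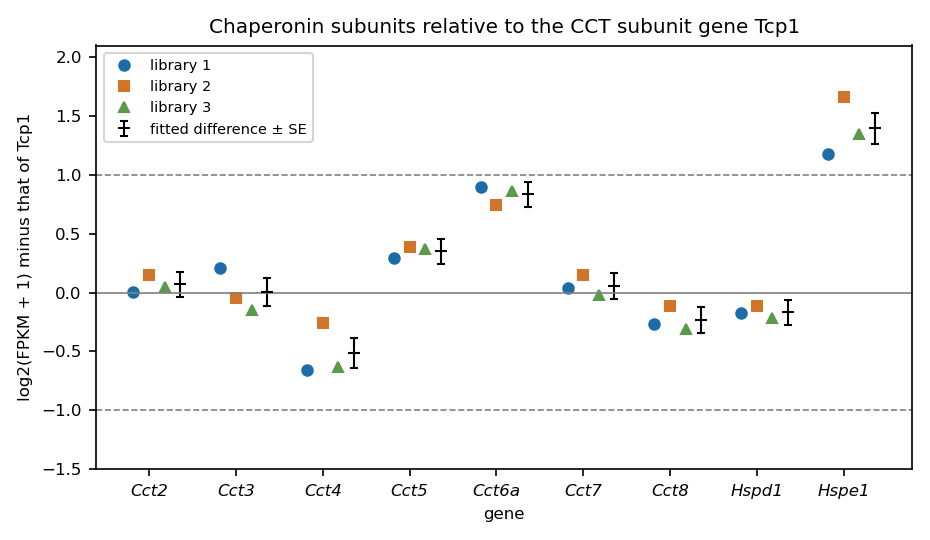
Log2 difference from Tcp1 in each library, as points, of the CCT subunits and the mitochondrial chaperonin, with the mean and its SE from the limma fit and lines marking 2-fold. The fitted differences of the 7 CCT subunits lie between -0.52 and 0.83, whereas Hspe1 lies at 1.40.

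Over all members tested against Tcp1, 52 of 81 were called lower, 4 higher and 25 not called, with a median log2 difference of -2.23 against -3.36 over all genes. Of all genes, 83.9% were called lower and 2.81% higher. The 4 higher genes were Hspa8 (log2 difference 2.72), Hsp90ab1 (2.42), Hsp90aa1 (1.80, SE 0.174) and Hspe1 (1.40, SE 0.134), and the call of Hspe1 was lost without library 2 (limma adjusted p = 0.0650). Of the 5 small heat shock proteins tested and the 2 heat shock factors all were called lower, and of the 5 other co-chaperones none. Hsph1 was called lower than Tcp1 (-1.30, limma adjusted p = 0.0464), a call lost without library 1 or library 2 and with a pseudocount of 0.1. The call of Dnajb5 (-1.24, limma adjusted p = 0.0442) was lost whichever library was left out (adjusted p from 0.0680 to 0.117), and that of Dnajb11 (-1.31, limma adjusted p = 0.0262) without library 3.

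J proteins were the most numerous family, with 44 genes of which 38 passed 1 FPKM. Dnaja1, the leading class A gene and an Hsp70 partner in protein folding, was at 257.83, 209.06 and 187.22 FPKM. Dnajb6, which keeps polyglutamine proteins from aggregating, was at 171.32, 153.97 and 143.09 FPKM. Both were highest in library 1 and lowest in library 3 as deposited. Dnaja1 exceeded Dnaja2 by a ratio of 3.84 ± 0.533, and Dnaja2 (mean 56.7 FPKM) exceeded the inducible Dnajb1 by 3.05 ± 0.152. Dnaja4 had a mean of 6.66 FPKM and shares 50.2% of its stretches with the overlapping gene Wdr61, at a mean of 58.1 FPKM.

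Among class C, whose members mostly have specialised tasks, Dnajc6, which encodes auxilin, the neuronal factor that recruits Hsc70 to clathrin coats, was at 69.00, 77.68 and 78.62 FPKM. Dnajc7, a co-chaperone of Hsp70 and Hsp90, was at 93.30, 59.57 and 66.96 FPKM, and library 1 stood above the others. The splicing-associated Dnajc8 had a mean of 69.0 FPKM. In class C 20 of 24 genes were called lower than Tcp1, in class B 9 of 10 and in class A 2 of 4, where 83.9% of all genes were called lower; the share in class C is near that background. The 6 J proteins that did not pass were Dnajb13 and Dnajc22 under 1 FPKM and Dnajb7, Dnajb8, Dnajc5b and Dnajc5g at 0. Dnajb3, at 1.36, 3.89 and 3.17 FPKM, overlaps 8 coding genes of the Ugt1a cluster, and its value is uncertain because the use of strand in counting is not given.

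**Figure D3:**
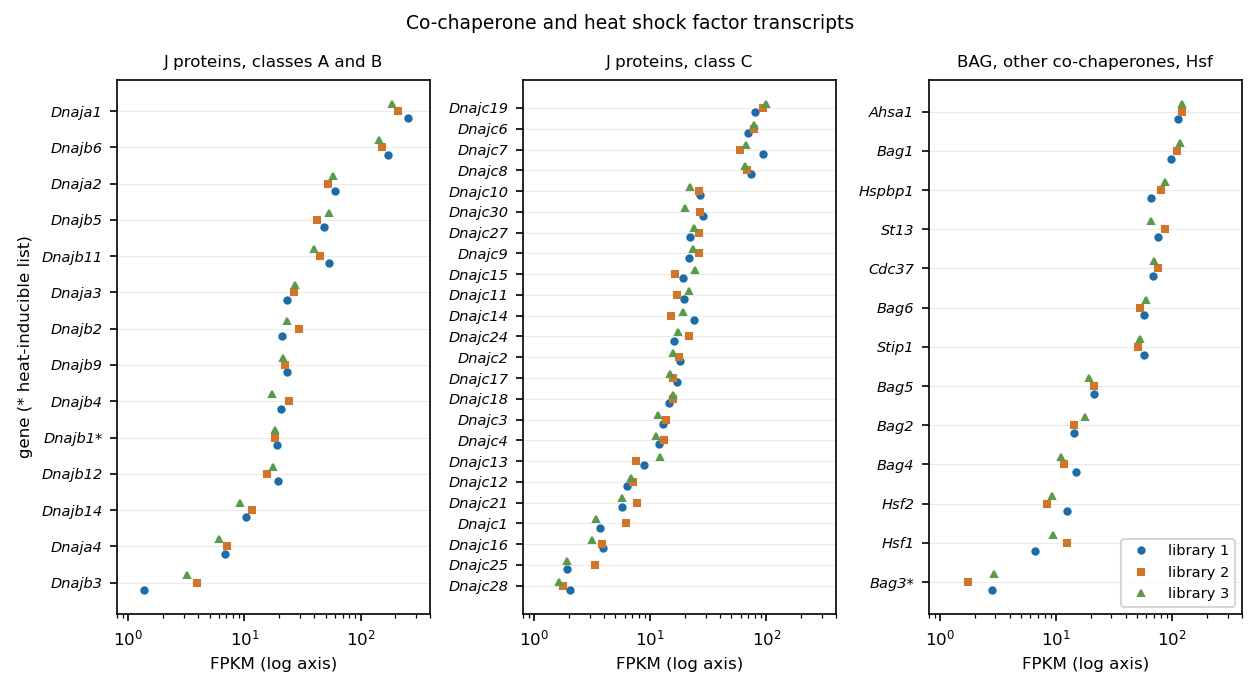
FPKM (log axis) of the J proteins, BAG proteins, other co-chaperones and heat shock factors, with 1 point per library. Dnaja1, at a mean of 218 FPKM, is the highest, and the heat shock factors lie near 10 FPKM.

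Co-chaperones that connect Hsp70 and Hsp90 were all present at moderate levels. Ahsa1, which speeds the ATPase of Hsp90, had a mean of 118 FPKM, Hspbp1, an Hsp70 exchange factor, 77.6, St13, the Hsp70 interactor Hip, 76.2, Cdc37, which brings kinases to Hsp90, 70.9 and Stip1, the Hop adaptor between Hsp70 and Hsp90, 53.8 FPKM. All 5 were called lower than Hsp90ab1, from -2.39 for Ahsa1 (SE 0.145, limma adjusted p = 1.23e-05) to -3.51 for Stip1. Against Hsp90ab1 77 of 80 members were called lower, where 97.0% of all genes were, and none higher, where 0.337% were. The 3 not called were Hspa8, Hsp90aa1 and Hspe1. Dnaja1 was called lower than Hsp90ab1 (-1.52, limma adjusted p = 0.00345), a call lost without library 3 (0.0711).

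The BAG proteins, exchange factors of Hsp70, were led by Bag1, a constitutive member, at 96.93, 110.80 and 116.30 FPKM. Bag6, which handles misplaced membrane proteins, was at 56.76, 53.00 and 58.98 FPKM. Bag5, Bag2 and Bag4 had means of 20.5, 15.3 and 12.5 FPKM. Bag1 was above the inducible Bag3 by a ratio of 46.0 ± 15.3. Bag3 had an estimated 23.8, 16.9 and 40.0 fragments.

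Small heat shock proteins, which hold unfolded proteins without ATP, were low apart from 1 gene. Hspb11, a component of cilia transport named with this family, was at 35.67, 31.61 and 30.42 FPKM. Hspb8, a partner of Bag3, was at 10.02, 14.64 and 13.45 and Hspb6 at 6.74, 6.02 and 6.07 FPKM. Hspb2 was at 0.92, 4 and 3.01 FPKM and had the largest SD of log2 values of any member, on an estimated 1.77, 8.72 and 9.35 fragments. On the opposite strand it overlaps Cryab, a small heat shock protein outside the symbol rule that was at 44.55, 53.09 and 53.26 FPKM. Of the stretches of Hspb2, 16.5% recur in Cryab when matches on either strand are counted. Hspb3, Hspb7 and Hspb9, known from muscle or testis, stayed under 1 FPKM.

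The heat shock factors that control the inducible members were low in RNA beside the abundant members, but near the middle of all genes tested. Their median log2 difference from Hspa8 was -6.18, against -6.08 over all genes. Hsf1, the main activator of the heat response, was at 6.62, 12.38 and 9.38 FPKM, and Hsf2, a related factor of development, at 12.44, 8.33 and 9.17 FPKM. Hsf2 was above Hsf1 in library 1 and below it in libraries 2 and 3, with ratios of 1.88, 0.673 and 0.978 (1.18 ± 0.627). The 2 factors thus could not be ranked. Hsf1 had an estimated 45.2, 95.7 and 103 fragments.

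Other genes of the chaperone pathway were measured beside the members. Of 35 such genes outside the symbol rule, 32 passed 1 FPKM, and 16 of the 31 apart from Tcp1 were called lower than Tcp1 and 1 higher, where 83.9% of all genes were called lower and 2.81% higher. Pfdn5, a subunit of prefoldin that delivers actin and tubulin to CCT, was at 267.58, 344.72 and 274.48 FPKM. Calr and Canx, the sugar-binding chaperones of the ER, were at 273.94, 240.72 and 227.37 and at 156.98, 142.77 and 126.05 FPKM, above Hspa5 in each library.

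Members varied between libraries about as much as other genes of their level. For means from 1 to 10 FPKM the median coefficient of variation was 21.7% for 18 members and 20.7% for all genes, and for means from 10 to 100 it was 10.3% for 48 members and 10.7% for all. From 100 FPKM it was 9.12% for 15 members and 7.94% for 992 genes. In that range 3 of the 15 members, Hsp90aa1, Cct3 and Dnaja1, lay above 15.5%, the 90th percentile of all genes. In the lower ranges 1 of 18 and 2 of 48 members lay above the 90th percentile of their range. The most variable members by SD of log2 values were Hspb2, Dnajb3 and Hsp90aa1, and only the last had many fragments behind it. The heat-inducible list had a median of 24.2% and the constitutive list 8.57%; the 2 lists differ in level as well.

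**Figure D4:**
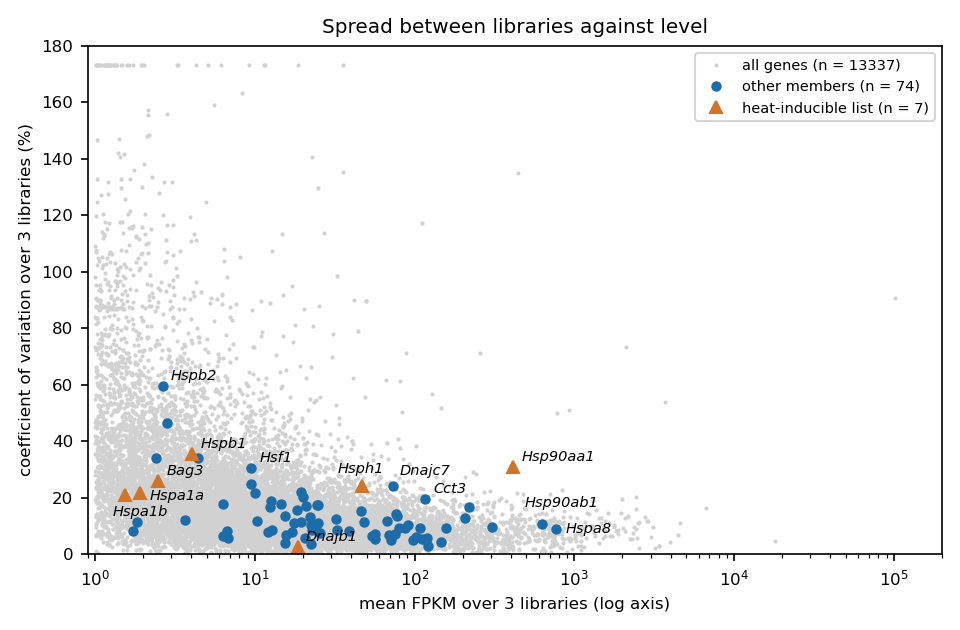
Coefficient of variation (%) over 3 libraries against mean FPKM (log axis) for all 13337 genes in grey, the 7 genes of the heat-inducible list as triangles and the 74 other members as circles. Hsp90aa1 lies at 30.9%, above the 90th percentile of 15.5% for genes from 100 FPKM, and Dnajb1 at 2.46%.

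Which library was highest depended on how the table was scaled. As deposited, 40 of 81 members (49.4%) were highest in library 1, against 36.5% of all genes. With the sum of the table set equal in each library, library 3 was highest for 56 of 81 members and for 65.2% of all genes, and library 1 for 17 members. Leaving out mitochondrially encoded and predicted genes, Bc1, Rn7s1 and Rn7s2 before that step put 44 members highest in library 1, against 43.0% of all genes. Hsp90aa1 kept its order under all 3, at 739.6, 489.5 and 461.6 after the former rescaling and 980.4, 694.4 and 505.2 after the latter. Dnaja1 was highest in library 1 each time, while its lowest library changed from 3 to 2 under the former.

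**Figure D5:**
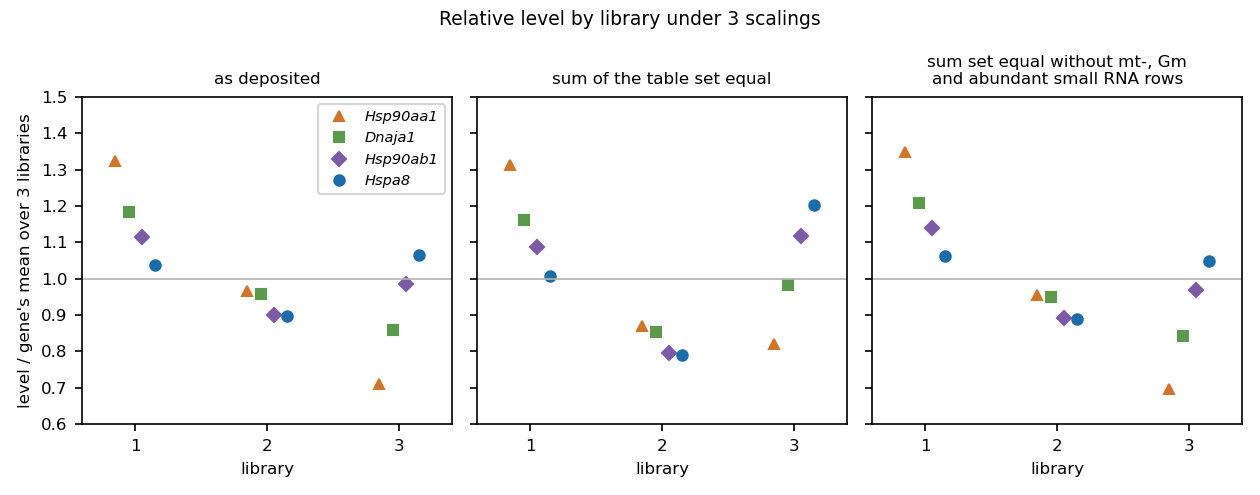
Level in each library divided by the gene's mean over 3 libraries, for Hsp90aa1, Dnaja1, Hsp90ab1 and Hspa8, as deposited and after 2 rescalings. Hsp90aa1 is highest in library 1 and lowest in library 3 in every panel, whereas Hspa8 is highest in library 3 in the first 2 panels.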

How the data were processed

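Per the labels' protocols, whole hippocampus gave total RNA that was read from both ends, 150 bases each. The authors deposited FPKM values per gene with 1 column for each of the 3 libraries, per the file headers. Per the submitters' processing notes, Bowtie2 and the build GRCm38 (mm10) were used. How fragments were counted, with which annotation and versions and whether by strand, is not given in the sources used here. Values of gene copies and of overlapping or antisense genes are therefore uncertain: 48 of the 93 members overlap another GENCODE gene. Of the 92 members whose coding transcript was compared, 17 share over 10% of their 150-base stretches with other genes. Matches on either strand were counted in all such shares.

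FPKM were used as deposited. All 93 members matched RefSeq by Entrez identifier; 16 pseudogene entries were left out. Genes at a mean of at least 1 FPKM were compared with Hspa8, Hsp90ab1 or Tcp1 on log2(FPKM + 1), as the difference inside each library. The differences were tested with limma 3.58.1 in R 4.3.3 (treat, two-sided, null of up to 2-fold, Benjamini-Hochberg over all genes, threshold 0.05). Library scaling cancels in them apart from the pseudocount. The test was also run on simulated data for 13336 genes; its pass mark was loosened after the first 2 runs fell short, between which the simulated spread of the reference gene was also changed to its own. At a true log2 difference of -3 it called 90% of changed genes against Hspa8, 98% against Hsp90ab1 and 100% against Tcp1, and at -2 it called 68%, 66% and 70%, so a gene not called can still differ by more than 2-fold. Depth was estimated from the low values, up to about 4 fragments, among 8729 genes. These were 928, 945 and 986 values in libraries 1, 2 and 3. Of them, 92.9%, 92.2% and 91.0% came within 0.15 of a whole fragment. The settings were chosen on those same values, after the data were seen. Fragment numbers cover counting error only. No count test was run.

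The members, lists, references and tests were chosen with earlier results of these data known. Every member at 1 FPKM or more could be named with its mean. Values per library were given for inducible members, the Hsp70, Hsp90, chaperonin and regulator families, and the 5 highest and 3 most variable members. Of the Hsp70 family, Hspa12a, Hspa2, Hspa14 and Hspa13 were given by mean only. Tcp1, Trap1, Cryab and the highest genes of other lists were also given per library. A few further J, BAG and small heat shock proteins were named so after their values were seen. The same holds for single immediate early and unfolded protein response genes. Alternatives were the pseudocount, the filter, the null, rescaled tables and leaving out each library. Values were handled in Python 3.11.15 (pandas 2.3.3, numpy 2.4.6, scipy 1.17.1) and plotted with matplotlib 3.10.9.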

Additional observations from a re-analysis of the deposited data

How the results depend on the processing

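Of the results that summarise a comparison, 108 values under another setting stayed within the limits used and 12 moved. Against a null of no difference, genes called higher numbered 81 in place of 34 for Hspa8, 108 in place of 45 for Hsp90ab1 and 707 in place of 375 for Tcp1. Members not called fell to 1 for Hspa8 (from 2), 1 for Hsp90ab1 (from 3) and 8 for Tcp1 (from 25), and members higher than Tcp1 rose to 8 from 4. Without a filter, 16902 of 19045 genes were lower than Tcp1, in place of 11192, since more genes were tested. Rescaling the table to an equal sum moved the median member from 20.4 to 28.1 and the members' sum from 5526 to 7610; leaving out mitochondrially encoded and predicted genes, Bc1, Rn7s1 and Rn7s2 first moved them to 35.6 and 9641. The difference of Cct3 from Tcp1 lay between -0.0956 and 0.0797 when a library was left out, so its sign is not set; the cause was not tested. No paired analysis was possible because there is 1 group. Depth limits the low members most: Hspa1a, Hspa1b, Hspb1, Hspb2 and Bag3 rest on few fragments, and differences of these genes between libraries were not resolved.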
